A study of Mus musculus with 9 samples.

Results

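The 8 genes described here encode surface receptors that restrain or support T cells and NK cells: Lag3, Havcr2 (the protein Tim3), Tigit, Cd160, Cd226, Cd96, Crtam and Cd200. They were chosen by name, with earlier results of these data known. All 8 were found among the 48663 entries of the deposited count table and among the 15738 genes with enough counts to be tested. RNA sequencing was done on tetramer-binding T cells of mouse spleen taken at day 30 of infection with LCMV Arm, the Armstrong strain of lymphocytic choriomeningitis virus, which causes an acute infection that is cleared. There were 3 groups of 3 libraries. CD4 control cells bound the class II tetramer GP66:I-Ab and came from Ox40-Cre- mice. CD4 ThpokAD cells bound the same tetramer and came from Ox40-Cre+ Thpokfl/fl mice, in which Cre under the control of Ox40 (Tnfrsf4), a receptor that T cells raise on activation, acts on floxed alleles of Thpok (Zbtb7b), the factor that holds CD4 T cells in the helper lineage. CD8 control cells bound the class I tetramer GP33:H-2Db and came from Ox40-Cre- mice. Age, sex, pooling of animals and whether the controls carried floxed alleles are not given in the sources used here. Cre was present only with the floxed alleles, and in CD8 control the lineage, peptide and tetramer class came together, so their parts cannot be told apart.

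Tigit, Cd96 and Cd226 are immunoglobulin-family receptors that share ligands of the nectin family. Cd226 (DNAM-1) is activating and Tigit is inhibitory, and both bind the poliovirus receptor Pvr, as Cd96 does. Crtam binds the nectin-like molecule Cadm1 and appears on activated CD8 and cytotoxic CD4 T cells. Lag3 resembles Cd4 and binds MHC class II, and Tim3 binds galectin-9 and Ceacam1 among other ligands. Cd160 binds Tnfrsf14 (HVEM), which it shares with Btla, and Cd200 signals to myeloid cells through Cd200r1. Lag3, Tim3, Tigit and Cd160 are best known from T cells under lasting antigen stimulation, whereas the cells measured here were memory cells after an acute infection.

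Upstream sequence is shown for Cd160 and Havcr2, which were higher in CD4 ThpokAD, and for Tigit and Cd200, which were not called different between the CD4 groups. Each run is the 250 bases before a RefSeq transcript start (GRCm38.p6), 5′ to 3′ on the gene's strand, with matches to the Runx motif TGTGGT, on either strand, in capitals. Runx3 is a factor of the CD8 lineage, and its own RNA was not called different between any of the groups.
Cd160, second listed start, chr3:96814522-96814771, minus strand, inside the gene but outside its annotated exons: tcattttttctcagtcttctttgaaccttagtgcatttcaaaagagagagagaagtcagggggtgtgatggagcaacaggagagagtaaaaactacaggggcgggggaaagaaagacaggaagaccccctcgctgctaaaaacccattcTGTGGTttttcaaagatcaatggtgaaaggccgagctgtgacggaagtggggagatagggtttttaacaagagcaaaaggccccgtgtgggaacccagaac
Havcr2, chr11:46454681-46454930, plus strand: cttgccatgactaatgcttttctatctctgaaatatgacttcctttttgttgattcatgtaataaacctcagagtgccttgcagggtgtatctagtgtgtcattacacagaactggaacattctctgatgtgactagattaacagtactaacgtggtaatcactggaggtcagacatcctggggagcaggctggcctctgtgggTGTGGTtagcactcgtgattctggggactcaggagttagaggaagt
Tigit, chr16:43664185-43664434, minus strand: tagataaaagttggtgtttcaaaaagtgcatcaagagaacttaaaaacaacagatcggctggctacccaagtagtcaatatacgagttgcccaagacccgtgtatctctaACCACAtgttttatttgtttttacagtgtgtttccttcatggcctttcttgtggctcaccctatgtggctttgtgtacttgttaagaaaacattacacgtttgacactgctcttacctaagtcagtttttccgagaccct
Cd200, chr16:45409054-45409303, minus strand: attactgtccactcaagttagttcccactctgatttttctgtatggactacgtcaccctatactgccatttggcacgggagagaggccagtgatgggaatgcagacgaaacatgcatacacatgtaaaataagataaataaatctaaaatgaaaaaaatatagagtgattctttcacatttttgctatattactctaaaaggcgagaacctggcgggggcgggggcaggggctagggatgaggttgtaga
RefSeq promoter windows were matched for 5 of the 8 genes (Cd160 with 2 starts, Cd200, Cd96, Havcr2 and Tigit) and not for Lag3, Cd226 and Crtam. TGTGGT stood in 5 of the 6 windows, against 14.0% of 32851 windows of the same length, and Cd200 was the one without it. It was present at the starts of genes that rose in CD4 ThpokAD (Cd160, Havcr2) and of genes not called there (Tigit, Cd96). The AP-1 motif TGANTCA was matched in the Havcr2 window only (6.75% of all windows), TCF (CTTTGA, 13.8%) only at the second Cd160 start and NFAT (TGGAAA, 18.6%) only at Cd96. The T-box motif AGGTGT (11.8%) was in none of the 6. A match of letters describes the sequence and not the binding of a factor.

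Total counts were 16664474 to 38981516 per library, with the highest in CD8 control replicate 3. Levels are given as CPM, counts per unit of library size, with library sizes scaled by the trimmed mean of M-values (TMM). Zbtb7b stood at 44.97 ± 5.68 CPM in CD4 control, 0.807 ± 0.0953 in CD4 ThpokAD and 20.75 ± 2.87 in CD8 control (mean ± SD, n = 3), lowest in the group labelled ThpokAD. Cd4, Cd8a and Cd8b1 also followed the labelled lineages, with Cd8a at 49.6 ± 15.15 CPM in CD4 ThpokAD between the controls. Changes were tested with edgeR's quasi-likelihood test over all tested genes, and a gene was called at a Benjamini-Hochberg adjusted p under 0.05. The 3 comparisons share libraries. In bulk RNA, fewer cells with a transcript and less transcript per cell cannot be told apart.

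The 8 genes differed in the group where they stood highest. Cd160 and Cd226 were lowest in CD4 control and not called different between CD4 ThpokAD and CD8 control, and Crtam rose in steps from CD4 control to CD4 ThpokAD to CD8 control. Havcr2 and Lag3 were highest in CD4 ThpokAD. Tigit and Cd200 were high in both CD4 groups and low in CD8 control. Cd96 was high in all groups. Against CD4 control, 4 of the 8 were called higher in CD4 ThpokAD and none lower, where 2.74% of all tested genes were called (1.81% higher and 0.928% lower). Their median log2 fold change was 1.64, beside 0.00 for all tested genes. Since the 8 were chosen with earlier results of these data known, such counts and medians only describe them. Between the controls, 3 were called higher in CD8 control and 2 lower, with 11.7% of all genes called (5.13% higher and 6.55% lower). From CD4 ThpokAD to CD8 control, 1 was called higher and 3 lower, with 6.54% called (1.91% and 4.63%).

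**Figure D1:**
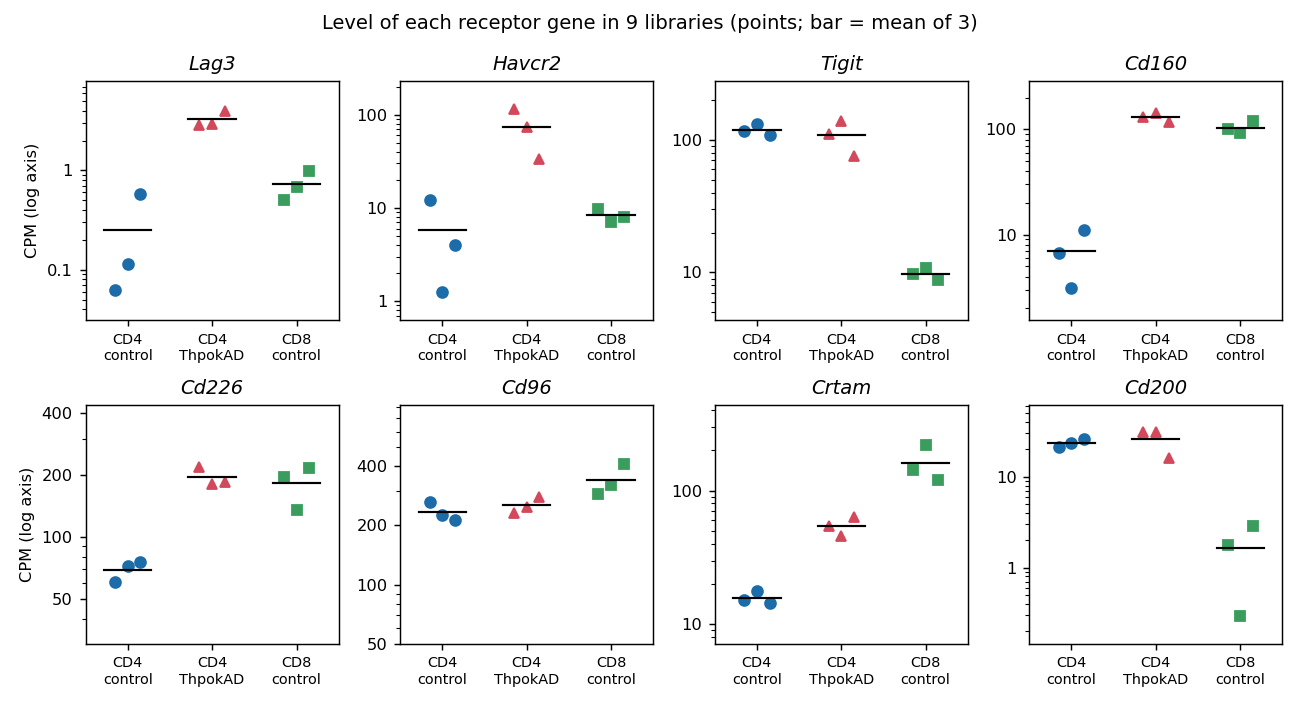
CPM (log axis) of each receptor gene in the 9 libraries, with 1 point per library and a bar at the mean of 3. Cd160 and Cd226 of CD4 ThpokAD lie with CD8 control, Tigit and Cd200 with CD4 control, and Havcr2 and Lag3 above both.

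Cd160, an inhibitory receptor of cytotoxic lymphocytes, had the largest fold difference of the 8 between the CD4 groups with all libraries in the fit. Havcr2 had a larger one without CD4 control replicate 1 (log2 4.82), and Lag3 without CD4 control replicate 3 (5.12, against 4.74 for Cd160). Cd160 stood at 6.71, 3.09 and 11.1 CPM in the CD4 control libraries (353 counts in all), at 133, 144 and 116 in CD4 ThpokAD and at 100, 93.1 and 119 in CD8 control. All libraries of CD4 ThpokAD and CD8 control were far above those of CD4 control, and they overlapped each other. The rise in CD4 ThpokAD was 18.8-fold (log2 4.23, SE 0.405, edgeR adjusted p = 0.00113) and that in CD8 control 14.9-fold (log2 3.90, SE 0.399, adjusted p = 0.000354). Between CD8 control and CD4 ThpokAD the log2 difference was -0.33 and was not called (adjusted p = 0.672), with 2 SE reaching from -1.03 to 0.37.

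Cd226, the activating counterpart of Tigit, rose by a smaller fold. Its libraries held 60.5, 72.2 and 75.05 CPM in CD4 control, 219, 181.5 and 185 in CD4 ThpokAD and 195, 135.5 and 217 in CD8 control. No library of either of the latter groups reached down to CD4 control, and again those groups overlapped. Cd226 was 2.82-fold higher in CD4 ThpokAD (log2 1.496, SE 0.190, edgeR adjusted p = 0.00437) and 2.64-fold higher in CD8 control (adjusted p = 0.00179). The difference between CD8 control and CD4 ThpokAD, log2 -0.10, was not called (adjusted p = 0.839), and 2 SE reached from -0.47 to 0.27.

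Crtam, which marks activated CD8 T cells and CD4 T cells with cytotoxic features, was the only one of the 8 called in all 3 comparisons. It was at 15.1, 17.8 and 14.3 CPM in CD4 control, 54.0, 45.5 and 63.0 in CD4 ThpokAD and 143, 219 and 121 in CD8 control. The 3 groups did not overlap, with CD4 ThpokAD in the middle. The rise in CD4 ThpokAD over CD4 control was 3.44-fold (log2 1.78, SE 0.244, edgeR adjusted p = 0.00635). CD8 control was higher again than CD4 ThpokAD, by 2.97-fold (log2 1.57, SE 0.239, adjusted p = 0.00592), and 10.2-fold above CD4 control (adjusted p = 7.09e-05).

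All calls of Cd160, Cd226 and Crtam held under each of the 19 alternatives run, including each library left out in turn. Of 11 tested NK cell markers, 5 rose in CD4 ThpokAD against CD4 control and none fell, or 3 to 4 with any 1 library left out (4 without CD4 control replicate 3 or CD8 control replicate 1 or 2). The 5 were Klrb1c, Klra4, Klra9, Klre1 and Eomes, which is also a T cell gene. On average Klre1 was at 1.41, 26.4 and 32.3 CPM in CD4 control, CD4 ThpokAD and CD8 control. Klra9 was at 0.199, 6.88 and 6.90 CPM and Klra4 at 0, 2.41 and 5.58 CPM. Between the controls the same 5 were higher in CD8 control and 1 marker, Fcer1g, was lower, with 4 to 6 called when 1 library was left out. The summed level of the list was 63.2 to 71.8 CPM in CD4 control, 256 to 326 in CD4 ThpokAD and 272 to 311 in CD8 control. Ncr1, a defining NK receptor, was without a count in the CD4 control libraries, had 0, 40 and 60 counts in CD4 ThpokAD and 0, 160 and 0 in CD8 control, and Klra8 had none in either CD4 group. Klrb1c (NK1.1) was at 5.20 to 14.8 CPM in CD4 control, 52.3 to 94.95 in CD4 ThpokAD and 115 to 126 in CD8 control. The T cell genes Cd3d, Cd3e and Cd3g were at 403 CPM or above in all libraries. The part of NK cells in the levels of Cd160, Cd226 and Crtam was not tested.

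Havcr2 was the one member called higher in CD4 ThpokAD than in both controls. It was at 12.2, 1.26 and 3.96 CPM in CD4 control, 115, 73.9 and 33.5 in CD4 ThpokAD and 9.825, 7.07 and 8.09 in CD8 control. The libraries of CD4 ThpokAD spread over a wide range but all lay above every control library. The rise over CD4 control was 12.8-fold (log2 3.67, SE 0.762, edgeR adjusted p = 0.0402), and CD8 control was 8.89-fold below CD4 ThpokAD (log2 -3.15, SE 0.739, adjusted p = 0.0391). CD8 control and CD4 control were not called different (log2 0.52, adjusted p = 0.709, 2 SE from -0.88 to 1.92), and the difference was 1.67 without CD4 control replicate 1.

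The Havcr2 calls were close to the threshold. The call against CD4 control was lost in each fit that left out 1 library other than CD4 control replicate 1 (adjusted p = 0.0552 to 0.144), and with only the 6 libraries compared (0.0721). The log2 fold change stayed between 3.19 and 4.82 over all 19 alternatives, with the highest value without CD4 control replicate 1. The call against CD8 control was lost without CD4 control replicate 3, CD4 ThpokAD replicate 1 or 2, or any 1 of the CD8 control libraries (adjusted p = 0.0628 to 0.123), with the log2 difference between -3.50 and -2.68. Both were called by the Wald test of DESeq2 (adjusted p = 1.98e-06 and 3.52e-05).

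Tim3 is also carried by myeloid and dendritic cells. Of 19 tested markers of those cells, 2 rose in CD4 ThpokAD against CD4 control and none fell. They were Itgam, from 1.87 ± 1.51 to 34.6 ± 15.45 CPM (log2 4.20, edgeR adjusted p = 0.0284), and Cd68, from 22.45 ± 4.30 to 61.0 ± 20.98 CPM (log2 1.44, adjusted p = 0.036). With 1 library left out the count was 2 without CD8 control replicate 2, 1 without CD4 control replicate 1 or CD4 ThpokAD replicate 2 or 3, and 0 in the other fits. Against CD4 ThpokAD, 6 of the 19 fell in CD8 control and none rose, the other comparison in which Havcr2 was called. They were Csf1r (log2 -1.90, adjusted p = 0.0455), Cd68 (-1.52, 0.0171), Cd14 (-2.085, 0.0442), Cd74 (-2.25, 0.0045), H2-Aa and H2-Ab1, and 3 fell without CD4 ThpokAD replicate 2. Between the controls, where Havcr2 was not called, 3 of the 19 fell in CD8 control (Cd74, H2-Aa and H2-Ab1) and 1 rose (Itgam). Itgam was at 33.02 ± 6.437 CPM in CD8 control, not called against CD4 ThpokAD (log2 -0.06748, edgeR adjusted p = 0.9767). It was thus high in CD8 control, where Havcr2 was low, while Cd68 was lower there than in CD4 ThpokAD, as Havcr2 was. The sum of the list was 992 to 1705 CPM in CD4 control, 1210 to 2160 in CD4 ThpokAD and 478 to 858 in CD8 control. Csf1r, the growth factor receptor of macrophages, was at 24.2, 54.3 and 73.1 CPM in CD4 control, 113.5, 133 and 90.97 in CD4 ThpokAD and 20.7, 49.75 and 20.3 in CD8 control. The CD4 ThpokAD libraries were above all others for Csf1r, without a call between the CD4 groups (adjusted p = 0.257). Of the dendritic cell markers, Siglech had no count in either CD4 group and Clec9a was at 0.274 CPM at most in CD4 ThpokAD. Others had counts there: Xcr1 was at 17.65 ± 6.24 CPM in CD4 ThpokAD and 10.1 ± 0.929 in CD4 control. Zbtb46 was at 8.77 ± 3.63 and 12.4 ± 3.63 CPM in the same order, and neither was called between the CD4 groups.

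Regulatory T cells can carry Tim3 too. Of 10 markers of those cells 2 rose in CD4 ThpokAD against CD4 control, Lrrc32 and Capg, and 1 rose with any 1 library left out other than CD4 ThpokAD replicate 2. In CD8 control against CD4 ThpokAD 6 of the 10 fell and none rose. Between the controls, where Havcr2 was not called, 5 of the 10 fell in CD8 control and none rose. Foxp3, which defines those cells, was at 50.1, 11.8 and 25.6 CPM in CD4 ThpokAD and at 4.515 or less in the control libraries. It fell in CD8 control against CD4 ThpokAD (edgeR adjusted p = 0.0226) and was not called between the CD4 groups (adjusted p = 0.207). The part of either cell type in the Havcr2 level was not tested.

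Lag3 had few counts in any group. It had 1, 2 and 10 counts in CD4 control, 58, 54 and 75 in CD4 ThpokAD and 12, 14 and 40 in CD8 control, or 0.0621, 0.114 and 0.583 CPM, 2.89, 2.95 and 3.98 CPM and 0.502, 0.678 and 0.986 CPM. The CD4 ThpokAD libraries lay above all others, but the level was low there as well. The log2 fold change of 3.66 over CD4 control (SE 0.918) was not called by the edgeR test (adjusted p = 0.0769), nor was that of CD8 control against CD4 ThpokAD (-2.17, SE 0.850, adjusted p = 0.1815). The first difference passed under DESeq2 (adjusted p = 0.00445), under limma-trend (0.0102), with bias-adjusted deviances (0.0112) and without CD4 control replicate 3 (0.0469, at log2 5.12). The second was called with bias-adjusted deviances (0.0144) and limma-trend (0.0315). CD8 control and CD4 control differed by log2 1.49, which was not called (adjusted p = 0.318), and by 2.95 without CD4 control replicate 3.

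Lag3 sits beside Cd4, and the order of the groups differed between these neighbours. Cd4 was at 1354 ± 57.2 CPM in CD4 control, 635 ± 72.4 in CD4 ThpokAD and 1.28 ± 1.02 in CD8 control, while Lag3 was highest in CD4 ThpokAD. Its neighbour on the other side, Ptms, was at 1.66, 10.03 and 3.55 CPM on average in the same order of groups, and was not called (adjusted p = 0.0767 in CD4 ThpokAD against CD4 control).

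Tigit, the inhibitory receptor for Pvr, divided the cells by CD4 and CD8 label. Its libraries held 117, 132 and 109 CPM in CD4 control, 111, 139 and 75.75 in CD4 ThpokAD and 9.78, 10.8 and 8.75 in CD8 control. The CD4 groups overlapped and each library of theirs was above all of CD8 control. CD8 control was 12.2-fold lower than CD4 control (log2 -3.61, SE 0.241, edgeR adjusted p = 3.17e-05) and 11.1-fold lower than CD4 ThpokAD (adjusted p = 6.76e-05). The log2 difference of CD4 ThpokAD from CD4 control was -0.14 and was not called (adjusted p = 0.847), with 2 SE from -0.57 to 0.30.

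Cd200, an immunoglobulin-family ligand found on follicular helper cells and B cells, had the same order at a lower level. It was at 21.4, 23.2 and 25.99 CPM in CD4 control, 30.9, 30.96 and 16.2 in CD4 ThpokAD and 1.76, 0.291 and 2.885 in CD8 control, the last with 42, 6 and 117 counts. CD8 control lay below all CD4 libraries. It was 14.0-fold lower than CD4 control (log2 -3.81, SE 0.664, edgeR adjusted p = 0.0068) and 15.5-fold lower than CD4 ThpokAD (log2 -3.95, SE 0.668, adjusted p = 0.00975). Between the CD4 groups the log2 difference was 0.14 and was not called (adjusted p = 0.95), but 2 SE from -1.03 to 1.32 leave room for a change of 2-fold either way. The calls of Tigit and Cd200 against CD8 control held under all 19 alternatives. Without CD8 control replicate 3 the Cd200 differences were larger, at log2 -4.50 from CD4 control and -4.64 from CD4 ThpokAD.

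Markers of follicular helper cells were read beside Tigit and Cd200. Of 12 such markers, 8 fell in CD8 control against CD4 control, and 2 fell in CD4 ThpokAD against CD4 control (Icos and Angptl2). In CD8 control against CD4 ThpokAD 6 fell (median log2 fold change -4.08). None rose in any of the 3 comparisons. The sum of the list was 2541 to 3292 CPM in CD4 control, 1229 to 1837 in CD4 ThpokAD and 222 to 271 in CD8 control. The chemokine receptor Cxcr5 was at 178 to 258 CPM in CD4 control and at 44.3, 143 and 33.3 in CD4 ThpokAD (edgeR adjusted p = 0.165). CD4 ThpokAD replicate 2 was thus highest for Cxcr5 and for Tigit (139 CPM), and replicate 3 was lowest for Cxcr5, Tigit, Cd200 and Havcr2. Cd160 was also highest in replicate 2 and lowest in replicate 3 of that group, while Cd96, Crtam and Lag3 were highest in replicate 3. Of 12 B cell markers, none was called between the CD4 groups, and their sum was 516 to 703, 277 to 488 and 254 to 794 CPM in CD4 control, CD4 ThpokAD and CD8 control. In CD8 control against CD4 control 1 of them fell (Cd22, edgeR adjusted p = 0.016) and 1 rose (Cd79b, 0.0288). With 1 library left out 0 to 2 were called there. Against CD4 ThpokAD none of the B cell markers was called in CD8 control. Of 3 tested platelet markers and 5 of NKT and gamma-delta T cells, none was called in any comparison. The part of these cells in the receptor levels was not tested.

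Cd96, which competes with Cd226 for Pvr, stayed within a log2 difference of 0.54 in all 3 comparisons. It was at 262, 225 and 213 CPM in CD4 control, 232, 248 and 280 in CD4 ThpokAD and 288.5, 320 and 411 in CD8 control. The CD4 groups overlapped, while CD8 control was above both. Between the controls the log2 difference of 0.54 (SE 0.156) missed the edgeR threshold (adjusted p = 0.0559). It was called with total counts alone (adjusted p = 0.0246), bias-adjusted deviances (0.0438), limma-voom (0.0445) and DESeq2 (0.0134). CD4 ThpokAD differed from CD4 control by log2 0.12 (adjusted p = 0.806, 2 SE from -0.19 to 0.43), and CD8 control from CD4 ThpokAD by 0.42 (adjusted p = 0.158).

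**Figure D2:**
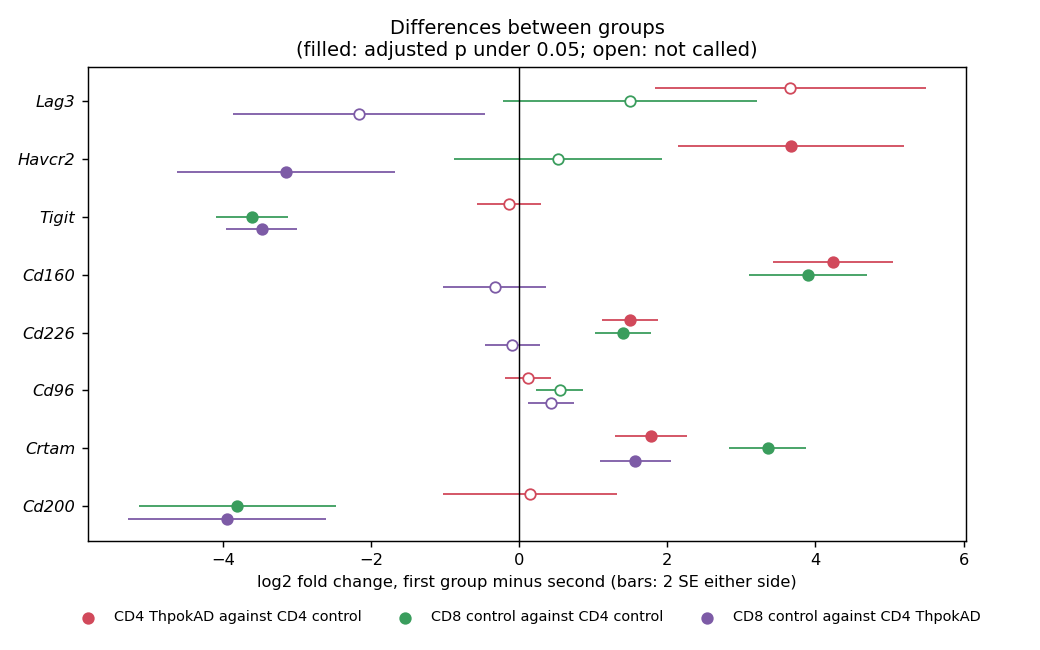
Log2 fold change of each gene in the 3 comparisons (first group minus second), with bars of 2 SE either side, filled where the edgeR adjusted p was under 0.05. The bars of Cd160 and Cd226 for CD8 control against CD4 ThpokAD cross 0, while those of Tigit and Cd200 do so only for CD4 ThpokAD against CD4 control.

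**Figure D3:**
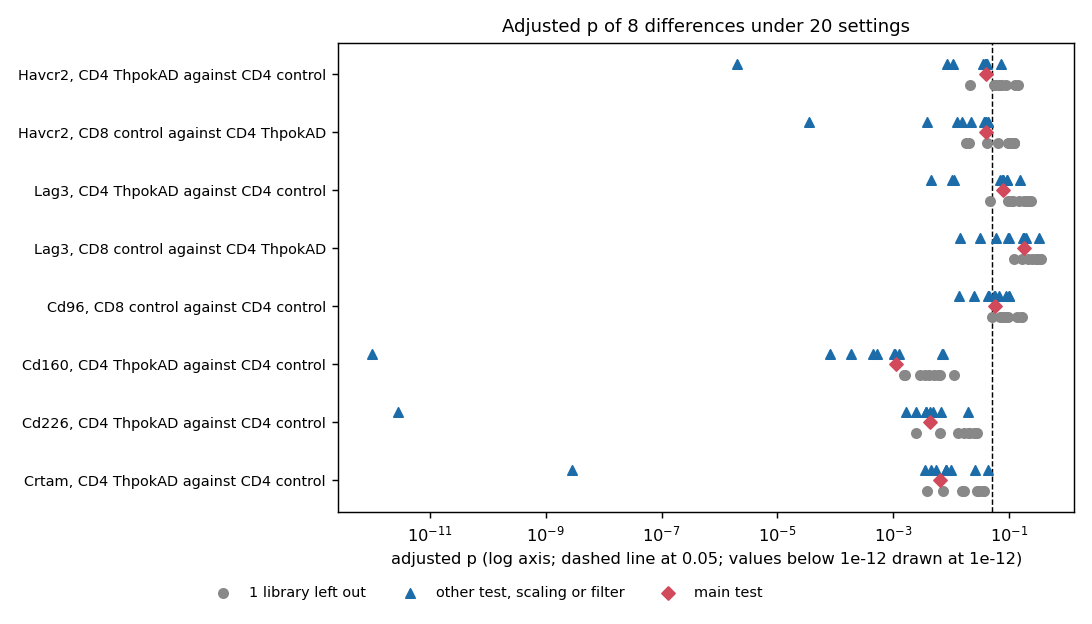
Adjusted p (log axis) of 8 differences under the main test and 19 alternatives, with a dashed line at 0.05. Cd160, Cd226 and Crtam stay left of the line in CD4 ThpokAD against CD4 control, while Havcr2, Lag3 and Cd96 have points on both sides.

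Groups were also compared by whether their libraries overlapped. CD4 ThpokAD and CD4 control did not overlap for 5 of the 8 genes, all higher in CD4 ThpokAD, where 25.7% of all tested genes did not overlap (13.2% higher and 12.5% lower). Lag3 was the one of the 5 that the edgeR test did not call. CD8 control and CD4 control did not overlap for 6, with 4 higher and 2 lower in CD8 control, against 33.9% of all genes (17.3% and 16.6%). For CD8 control and CD4 ThpokAD it was also 6, with 2 higher and 4 lower, against 27.1% (12.6% and 14.6%).

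Levels of different genes were compared per length, as mean CPM per kilobase of merged exons. In CD4 control the order was Tigit (129.9), Cd96 (107), Cd226 (14.2), Cd200 (7.09), Crtam (3.07), Cd160 (2.64), Havcr2 (2.14) and Lag3 (0.120). In CD4 ThpokAD it was Tigit (118), Cd96 (116), Cd160 (49.6), Cd226 (39.9), Havcr2 (27.2), Crtam (10.6), Cd200 (7.84) and Lag3 (1.55). In CD8 control Cd96 (156) was followed by Cd160 (39.4), Cd226 (37.3) and Crtam (31.3), and then by Tigit (10.6), Havcr2 (3.06), Cd200 (0.495) and Lag3 (0.342). Neighbours whose libraries overlapped were Tigit and Cd96, Crtam and Cd160, and Cd160 and Havcr2 in CD4 control. In CD4 ThpokAD they were Tigit and Cd96, Cd160 and Cd226, Cd226 and Havcr2, and Crtam and Cd200, and in CD8 control Cd160 and Cd226, Cd226 and Crtam, and Cd200 and Lag3. Against 15187 tested genes with a length, Cd96 was above the 96th percentile in every group (96.5, 96.8 and 97.9 in CD4 control, CD4 ThpokAD and CD8 control). Tigit was at percentile 97.1, 96.9 and 66.6, Cd160 at 37.6, 91.8 and 89.9, and Lag3 at 3.73, 27.6 and 12.25.

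The balance of Cd226 and Tigit, which compete for the same ligand, was also read within each library, where library scaling drops out. The log2 ratio of Cd226 to Tigit per length was -3.36, -3.29 and -2.95 in CD4 control, -1.43, -2.03 and -1.12 in CD4 ThpokAD and 1.91, 1.24 and 2.22 in CD8 control. The groups did not overlap. Per length, Tigit exceeded Cd226 by 9.18-fold in CD4 control and by 2.88-fold in CD4 ThpokAD, and Cd226 exceeded Tigit by 3.46-fold in CD8 control. The direction in CD4 ThpokAD rests on the division by length (919 exon bases for Tigit and 4891 for Cd226). In CPM, Cd226 was above Tigit in each library there (219, 181.5 and 185 against 111, 139 and 75.75). The order of the groups does not depend on the lengths. The ratio of Crtam to Tigit followed the same order, at -5.41 ± 0.0286, -3.45 ± 0.676 and 1.52 ± 0.303 (mean ± SD, n = 3). For Cd226 to Cd96 the log2 ratio was -2.92 ± 0.321 in CD4 control, -1.54 ± 0.266 in CD4 ThpokAD and -2.07 ± 0.339 in CD8 control, and the latter groups overlapped. With 3 libraries a group, an exact permutation test of such a ratio cannot go below p = 0.10, so none is given.

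**Figure D4:**
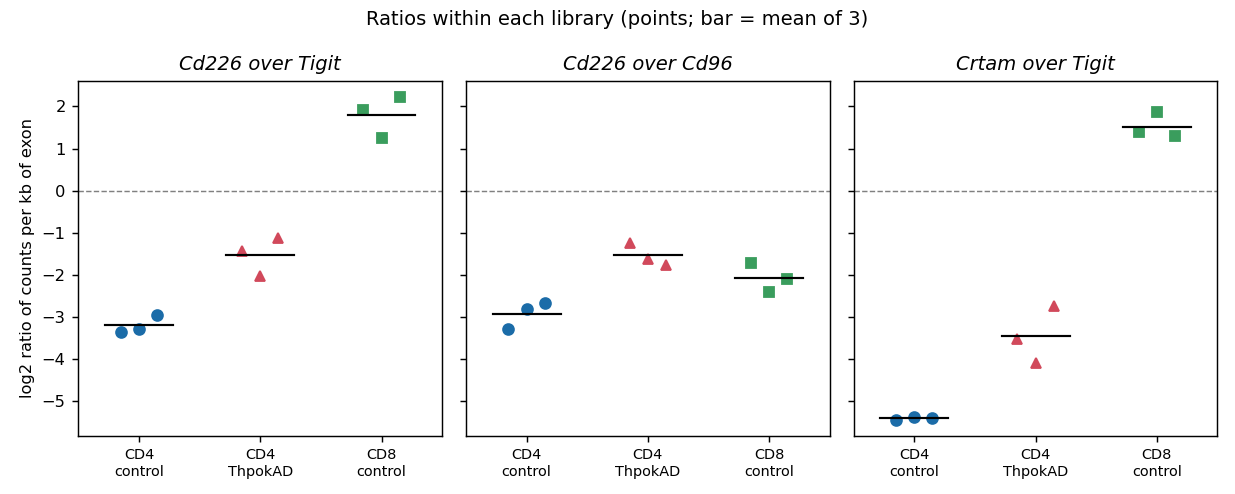
Log2 ratio of counts per kilobase of exon for Cd226 over Tigit, Cd226 over Cd96 and Crtam over Tigit, with 1 point per library, a bar at the mean of 3 and a dashed line at equal levels. The ratio to Tigit per length is negative in both CD4 groups and positive in the 3 CD8 control libraries. For Cd226 in CD4 ThpokAD the sign rests on the division by length.

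Ligands, partners and proteases of the receptors were read from a list of 27 genes, of which 21 were tested. In CD4 ThpokAD against CD4 control 3 rose and 1 fell, with a median log2 fold change of 0.27 beside 0.00 for all tested genes. Those that rose were Lgals3, a galectin that binds Lag3 (318 ± 89.8 against 50.97 ± 5.85 CPM, edgeR adjusted p = 0.00076), and the chains of the integrin LFA-1 with which Cd226 associates, Itgal (1978 ± 229 against 1127 ± 27.6, adjusted p = 0.00561) and Itgb2 (2156 ± 35.5 against 1297 ± 64.6, adjusted p = 0.00878). Btla, the inhibitory receptor that shares HVEM with Cd160 and the nearest tested gene below Cd200, fell from 90.1 ± 13.1 to 39.3 ± 8.71 CPM (adjusted p = 0.0228). Btla was no longer called in 5 of the 9 fits that leave out 1 library, those without CD4 control replicate 1, 2 or 3 or CD4 ThpokAD replicate 1 or 3. The HVEM gene Tnfrsf14 was at 10.3 ± 4.79 against 3.48 ± 0.812 CPM (adjusted p = 0.225).

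None of the nectin-family ligands tested was called between the CD4 groups. Pvr was at 64.4 ± 6.83 against 72.7 ± 8.01 CPM (edgeR adjusted p = 0.894) and at 30.5 ± 15.8 in CD8 control, not called against CD4 control (adjusted p = 0.0646). Nectin2 was at 0.727 CPM or less on average in each group. The galectin-9 gene Lgals9 was at 212 ± 7.19, 211 ± 11.6 and 226 ± 44.8 CPM in CD4 control, CD4 ThpokAD and CD8 control. Cd200r1, the receptor for Cd200, was at 26.1 ± 11.65, 21.8 ± 5.655 and 3.36 ± 1.16 CPM, and was lower in CD8 control than in CD4 control (adjusted p = 0.00255) and in CD4 ThpokAD (0.00702), as Cd200 was. Between the controls, 3 of the 21 were higher in CD8 control (Lgals3, Itgal and Itgb2) and 4 lower. The 4 were Cd200r1, Btla and the MHC class II genes H2-Aa and H2-Ab1, whose products bind Lag3 (adjusted p = 0.00597 and 0.00854). Without CD4 control replicate 1 or 2, 3 were lower and none higher, so that the calls of Lgals3, Itgal and Itgb2 were lost.

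Of 13 signalling proteins used by these receptors, 1 rose in CD4 ThpokAD and none fell (median log2 fold change -0.12). The one was Dok2, an adaptor that dampens Ras signalling (383 ± 28.5 against 202 ± 40.4 CPM, edgeR adjusted p = 0.0144), and none was called without CD4 control replicate 1 or CD4 ThpokAD replicate 1. Between the controls only Rasa1, a Ras GTPase-activating protein, was called (lower, adjusted p = 0.0243). Rasa1 was not called when CD4 control replicate 2 or 3 or CD8 control replicate 1 or 3 was left out, and 2 to 3 of the 13 were called lower with the replicate block, bias-adjusted deviances, limma or DESeq2 or without CD8 control replicate 2. In the edgeR test none was called between CD8 control and CD4 ThpokAD.

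Among 20 regulators of inhibitory receptor genes, 4 rose and 1 fell in CD4 ThpokAD against CD4 control (median -0.19). Prdm1 (Blimp1), a driver of the Havcr2, Lag3 and Tigit genes in T cells, was at 132 ± 12.5 against 35.2 ± 8.87 CPM (edgeR adjusted p = 0.00429) and at 47.7 ± 11.4 in CD8 control. Its highest group was that of Havcr2 and Lag3, though Lag3 was not called. Tigit was not called between the CD4 groups (adjusted p = 0.847). Whether any regulator of the list acted on the receptor genes here was not tested. Eomes, a T-box factor of cytotoxic cells, was at 94.0 ± 21.8 against 7.60 ± 3.98 CPM (adjusted p = 0.00169) and at 89.6 ± 11.6 in CD8 control, in the order of Cd160 and Cd226. Id2 and Tbx21 rose as well, and Tcf7 fell from 1502 ± 113 to 650 ± 33.6 CPM (adjusted p = 0.00468). Runx3 was at 197 ± 17.7, 315 ± 26.1 and 265 ± 73.2 CPM in CD4 control, CD4 ThpokAD and CD8 control. It was not called for CD4 ThpokAD against CD4 control (adjusted p = 0.127) or for CD8 control against CD4 control (0.210) or CD4 ThpokAD (0.544).

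Other regulators lay with Tigit and Cd200. From CD4 control to CD8 control 14 of the 20 fell and 3 rose (median -1.997). Of those that fell, Nr4a2 and Nr4a1 had the smallest edgeR adjusted p (1.9e-06 and 1.02e-05). Nr4a2 was at 727 ± 85.6, 585 ± 134 and 2.37 ± 0.676 CPM in CD4 control, CD4 ThpokAD and CD8 control. Nr4a1 was at 2303 ± 166, 2040 ± 320 and 4.57 ± 2.72 CPM. Neither was called between the CD4 groups (adjusted p = 0.560 and 0.877). Nr4a3 (log2 -7.78) and Irf4 (-5.11) fell between the controls as well. Maf, which acts with Blimp1 on inhibitory receptors, was at 108 ± 17.1, 84.3 ± 36.0 and 5.03 ± 3.50 CPM in CD4 control, CD4 ThpokAD and CD8 control (edgeR adjusted p = 0.836 between the CD4 groups and 0.00206 for CD8 control against CD4 control). Tox, known from exhausted and follicular cells, was at 85.4 ± 14.2, 90.95 ± 34.4 and 12.99 ± 1.47 CPM (adjusted p = 0.926 and 0.000396).

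Of 14 tested genes for other inhibitory receptors and ectoenzymes, 2 rose and 1 fell in CD4 ThpokAD against CD4 control (median 0.03). The lectin receptors Klrg1 (235 ± 56.2 against 9.11 ± 2.82 CPM, edgeR adjusted p = 0.000286) and Klrc1 (623 ± 56.15 against 119.5 ± 29.15, adjusted p = 0.000358) were high in CD4 ThpokAD and CD8 control, the pattern of Cd160. The one that fell was Btla, whose call was lost in the 5 fits named above. Pdcd1 (PD-1) and Ctla4 were high in both CD4 groups, with Pdcd1 at 254 ± 58.9 CPM in CD4 control and 416 ± 124.5 in CD4 ThpokAD and Ctla4 at 263 ± 4.60 and 321 ± 55.9, without a call between them (adjusted p = 0.221 and 0.478). They were at 24.9 ± 5.30 and 7.96 ± 1.485 CPM in CD8 control (adjusted p = 0.000126 and 2.27e-06 against CD4 control), the pattern of Tigit and Cd200. In that comparison 2 of the 14 rose and 5 fell.

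The genes whose levels ran most alike with each member over the 9 libraries are given as a description, since the points share libraries and fall in 3 groups. For Tigit they were the nuclear receptor gene Nr4a2 (Pearson r of log2 CPM 0.996), Tox2 (0.995) and Mafg (0.994), and for Cd200 they were Myb (0.987), Cdkn1a (0.983) and Ppp2r5e (0.979). For Cd160 they were Kcnj8 (0.983), Nedd4 (0.983) and Pea15a (0.978), and for Cd226 Pycard (0.983), Osbpl3 (0.979) and granzyme A, Gzma (0.973). Crtam ran with Ddit4 (0.984), Tbc1d10c (0.982) and Fam105a (0.978), and Cd96 with Cdkn2aipnl (0.959), Ddx18 (0.958) and Cd3g (0.958). Lag3 ran with Rcc1 (0.975), St3gal4 (0.973) and Bloc1s4 (0.962). Havcr2 had the lowest values, with Cers5 (0.929), the costimulatory ligand Cd86 (0.923) and the mitotic gene Cdc20 (0.921). Among the members themselves r was highest for Cd160 with Cd226 (0.947) and Tigit with Cd200 (0.922), and lowest for Tigit with Crtam (-0.846).

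The genes of 3 members, Tigit, Cd200 and Cd96, lie near each other on chromosome 16 (GRCm38). Tigit runs from 43648867 to 43664146, Cd200 from 45382135 to 45409053 and Cd96 from 46035657 to 46120251, all on the minus strand. The gap is 1.72 Mb between Tigit and Cd200 and 0.627 Mb between Cd200 and Cd96. Lag3 (chromosome 6, 124904361 to 124911705, minus strand) lies 16139 bases from Cd4 with no annotated gene between them. Cd160 is on chromosome 3 (96798763 to 96829351, minus strand), Crtam on chromosome 9 (40969691 to 41004628, minus strand), Havcr2 on chromosome 11 (46454935 to 46481255, plus strand) and Cd226 on chromosome 18 (89176967 to 89272229, plus strand). Exons of the 8 genes overlapped those of another gene only at Cd160, which shares 68 bases with Pdzk1. Pdzk1 had 13 counts at most in any library.

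The nearest tested genes on either side of the members mostly did not share their calls. Of 16 such neighbours, 1 was called higher and 1 lower in CD4 ThpokAD against CD4 control, where 2.74% of all tested genes were called. The higher one was Ubash3b, a phosphatase that restrains T cell receptor signals and lies 6469 bases from Crtam (95.7 against 51.3 CPM on average, edgeR adjusted p = 0.0438), and the lower was Btla. Between the controls, with 11.7% of all genes called, 4 were lower in CD8 control and none higher. They were Cd4 beside Lag3, Zbtb20 beside Tigit, Plcxd2 beside Cd96 and Btla beside Cd200. From CD4 ThpokAD to CD8 control, with 6.54% called, 2 were lower, Cd4 and Plcxd2, and none higher. Calls in the direction of the member's own call were those of Ubash3b with Crtam and, between the controls, Zbtb20 with Tigit and Btla with Cd200. Neighbours of Cd160, Cd226 and Havcr2 were not called in any comparison.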

How the data were processed

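The 8 genes and all gene lists were chosen with earlier results of these data known. Per the labels' protocols, RNA went through a low-input amplification kit and was read as 126 bp pairs. Among the tools and builds in the submitters' processing notes are STAR, HTSeq, DESeq2, Trimmomatic, bcl2fastq 2.17 and mm10, with no role stated. The annotation and the strand setting are not given in the sources used here. One table deposited by the authors gives whole-number counts for each symbol, without normalization. Another, a deposited signal, is those counts times 1 factor per library and served only in limma-trend (log2, pseudocount 0.5). Nothing in the labels says that replicates came from separate animals, so p-values measure the spread between these libraries, which may be technical.

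Genes were filtered with filterByExpr (minimum count 10, minimum total 15), and all 8 members passed. Lag3 was over the minimum of 0.519 CPM in 1 CD4 control library. The 9 libraries were fitted together with edgeR 4.0.16 in R 4.3.3 (TMM, trended dispersion, glmQLFTest, no replicate block), with Benjamini-Hochberg adjustment over all tested genes. SE was taken as the size of the log2 change over the root of F. Alternatives used DESeq2 1.42.0, limma 3.58.1, other scalings, no filter, fewer libraries and a block. Lengths and positions are from GENCODE M21 (GRCm38, 1-based) and promoter sequences from RefSeq (GRCm38.p6). The fit was tested on simulated data. The naming rule took, beside the 8, up to 4 called genes per list with the smallest adjusted p, a set of 13 well-known genes, the 3 genes most like each member (mean of at least 10 CPM), the nearest tested neighbours and defining markers of other cells. Not all of these are printed, and the markers given by library were picked after their values were seen.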

Additional observations from a re-analysis of the deposited data

How the results depend on the processing

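Of 24 differences (8 genes in 3 comparisons), 16 kept their direction and their side of the threshold under all 19 alternatives, as did 11 of the 13 called; the calls lost were those of Havcr2. Counts of the 8 genes called stayed within 1.5 times: 3 to 5, 5 to 6 and 3 to 5 over the alternatives. Differences near 0 changed sign in 5 fits. Cd200 in CD4 ThpokAD against CD4 control was -0.00599 without CD4 ThpokAD replicate 1 and -0.00082 without replicate 2 (-0.00599 to 0.392 with any 1 library left out), and Tigit was 0.0663 without CD4 ThpokAD replicate 3 (-0.355 to 0.0663). Cd226 in CD8 control against CD4 ThpokAD was 0.00419 without CD4 ThpokAD replicate 1 and 0.0932 without CD8 control replicate 2 (-0.235 to 0.0932). None was called. Counts of called list genes moved by more than 1.5 times in 91 fits and stayed within that in 593. Counts over all genes moved too, and the cause was not tested. In CD4 ThpokAD against CD4 control 431 became 281 with the replicate block, 721 by limma-trend and 1290 by DESeq2, and 181 to 477 with 1 library left out. In CD8 control against CD4 control 1839 became 2977 by DESeq2 and 1058 to 1667 with 1 library left out. In CD8 control against CD4 ThpokAD 1030 became 684 with the replicate block, 1638 with bias-adjusted deviances and 2171 by DESeq2, and 589 to 788 with 1 library left out. With total counts alone the median of all genes moved from 0.01 to 0.12 in CD8 control against CD4 control, and the split from 808 higher and 1031 lower to 1140 and 879; against CD4 ThpokAD it moved from 301 and 729 to 423 and 631. Deviations of same-numbered libraries had r of -0.0454 to 0.062, and in no comparison did every library match best with its own number. Replicates 1 and 3 did so in CD8 control against CD4 control. Whether the numbers pair the samples was not tested. The block changed no call of the 8 genes. A fit with 1 library left out leaves 2 in that group. Of 24 genes most like a member by Pearson r, 5 were also among its 3 nearest by Spearman's rho (rho 0.583 to 0.983). Depth limits Lag3 most, with 13 counts in the CD4 control libraries.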
